A study of Mus musculus with 8 samples.

Results

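Islets captured 3 days after the transfer of diabetogenic CD4 T cells were compared with islets of untreated mice. The comparison uses 2 of the 8 Affymetrix arrays of the series, chosen by their titles alone, with 1 array for each state. Of 18194 genes with a probe set, 4966 (27.3%) reached an intensity of 10 on either array and were kept. The untreated array held islet RNA of NOD.Scid mice that received no cells, labelled day 0. The day 3 array held islet RNA of NOD.Scid mice injected at day 0 with CD4+ BDC2.5 transgenic T cells and killed 3 days later. Both shared the NOD.Scid host, laser capture of islets from methanol-fixed frozen sections, RNA pooled from 5 mice, and an amplification before labelling. Age and sex of the mice were not given in the sources used here. Neither group received the antibody against interferon-γ (IFN-γ) that the 4 protected arrays of the series received, and the other 2 diabetogenic arrays are of days 4 and 8. No array of mice given non-diabetogenic cells was analysed here, so injection of any T cells and the attack by these T cells cannot be told apart. With 1 pooled array per state there is no replicate check, and every fold, count and difference below describes these 2 pools without a test.

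NOD.Scid mice carry the diabetes-prone NOD background and cannot make mature T or B cells, but keep myeloid cells, so mature T cells in such hosts come from the transfer. The transgenic T cell receptor of BDC2.5 cells recognises an antigen of beta cell granules, and these cells cause diabetes after transfer. IFN-γ, the main cytokine of such T helper 1 cells, acts through its receptor and the JAK-STAT pathway. Target promoters carry the γ-activated site (GAS) or the interferon-stimulated response element (ISRE), which interferon regulatory factors bind. The best known targets are the guanylate-binding proteins (GBP) and immunity-related GTPases (IRG), the MHC presentation machinery, and the chemokines Cxcl9 and Cxcl10, which attract activated T cells.

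The arrays were alike in overall level, with median probe set intensities of 3.42 on the untreated and 3.35 on the day 3 array and 13.9% and 14.0% of probe sets at 10 or more. The spiked hybridisation controls were near background on both, with medians of 2.29 and 1.93, against 551 to 1712 on the 5 arrays of later days. The intensity at the 3′ end over that at the 5′ end, a sign of RNA length, differed between the arrays, at 1.86 and 5.54 for Actb and 5.14 and 9.11 for Gapdh, and its part in the results was not tested. Islet hormone transcripts were bright on both arrays. Ins2 (insulin) read 4277 and 4471, Gcg (glucagon) 1996 and 2205, and Iapp (amylin) 505 and 769, in the order untreated and day 3. Transcripts of the surrounding exocrine tissue were present on both arrays as well, such as Cela3b (a pancreatic elastase) at 1341 and 615.

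Differences were taken as log2(intensity + 2), and a fold is the ratio of intensity + 2, which understates the difference of dim genes. At day 3, 306 kept genes (6.16%) were at least 2-fold higher and 100 (2.01%) at least 2-fold lower, while 4560 lay within 2-fold. At 4-fold the counts were 100 higher (2.01%) and 3 lower (0.0604%), and 23 genes were at least 8-fold higher against 0 lower. The larger differences thus ran mostly upward from genes that were dim in untreated islets. Of the 306 higher genes, 249 were below 10 on the untreated array, and the median of all 306 was 4.42 there and 19.7 at day 3. Of the 100 lower genes, 74 were below 10 at day 3, and the median went from 15.1 to 5.11. A gene that was kept through 1 array alone had to differ, and of the kept genes 694 passed through day 3 alone, 693 through untreated alone and 3579 through both. Over all kept genes the median difference was -0.14, so most genes read slightly lower at day 3. Of the genes past 2-fold, 75.4% were higher. Centring both arrays on the median of kept genes made that share 88.0%, with 368 higher and 50 lower. In bulk tissue, more cells of a type and more RNA per cell cannot be told apart.

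**Figure D1:**
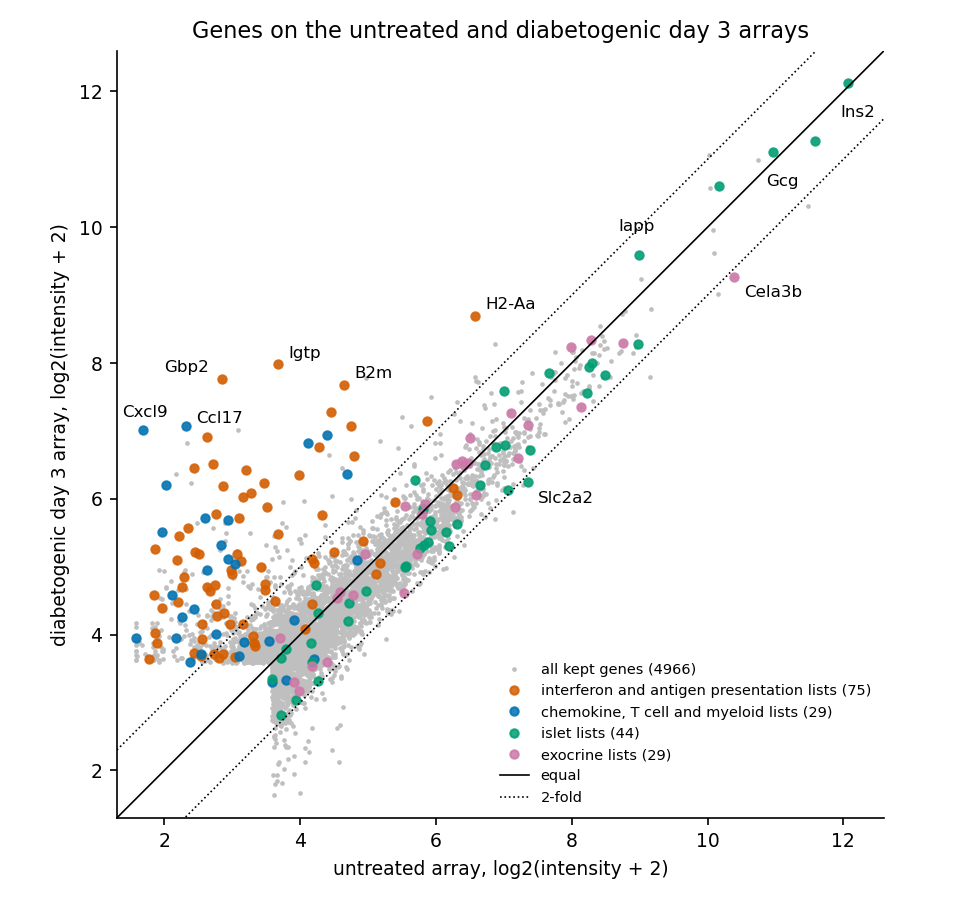
Intensity of each of the 4966 kept genes on the untreated array (x axis) and the diabetogenic day 3 array (y axis), both as log2(intensity + 2), with list members in colour, the line of equality and dotted lines at 2-fold. Above the upper dotted line lie 33 of 48 kept interferon genes and 22 of 27 kept antigen presentation genes, most of them at low untreated intensity. The share over all kept genes is 6.16%. Members kept through day 3 alone had to lie above equality, such as 21 of the 27 antiviral and 9 of the 14 class I genes. Islet genes lie mostly within 2-fold but below the line of equality, with a median of -0.32 over the 44 kept. The empty corner at the lower left is the filter at an intensity of 10.

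The largest difference belonged to Cxcl9, which read 1.20 in untreated islets and 127 at day 3, a 40.2-fold difference. Its untreated value lies near the lowest intensity on the arrays, and the size depends on the constant added: with 8 in place of 2 its difference was 3.87 on the log2 scale, below that of Gbp2 at 4.09, and with all its probe sets averaged it was 3.17. Gbp2, a guanylate-binding GTPase, read 5.17 and 216 (30.5-fold), and its other bright probe set gave 4.21 and 150. Ccl17, a chemokine of dendritic cells and macrophages that attracts CCR4-bearing T cells, read 3.00 and 132 (26.9-fold). The other 12 of the 15 leading genes were the IFN-γ-inducible GTPases Igtp, Gbp6, Iigp1 and Gm4951, the presentation genes Tap1 and Psmb8, Cxcl10, Ifng itself, the costimulatory receptor Cd40, the β-glucan receptor Clec7a, the leukocyte gene Plac8 and Pramel12. For Pramel12 a further probe set went the other way, from 12.8 to 6.17.

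**Figure D2:**
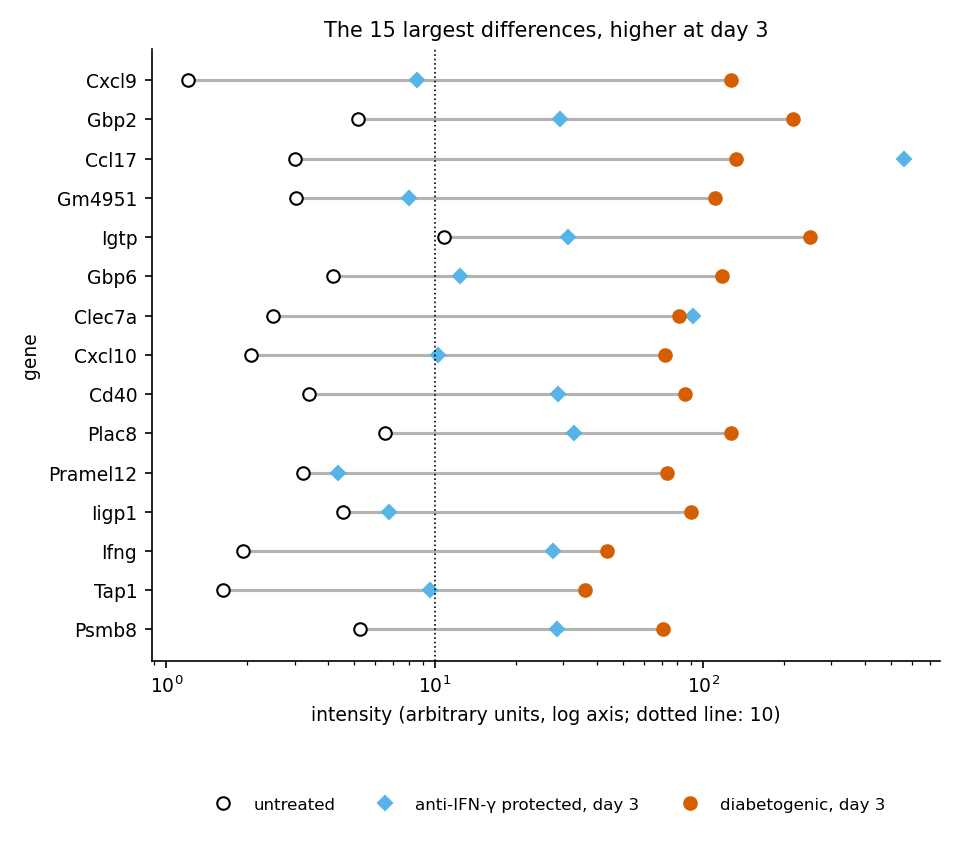
Intensity (log axis) of the 15 genes with the largest differences on the untreated array (open circles), the diabetogenic day 3 array (filled circles) and the protected day 3 array (diamonds), with a dotted line at 10. All 15 day 3 values lie at 36.4 or more, and 14 of the 15 untreated values lie below 10; Igtp starts at 10.8.

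The letters that the pathway reads occur in the promoters of some of the higher genes and not of others: Tap1, Clec7a and Plac8 held neither motif. The 250 bases before the start are given 5′ to 3′ on the gene's strand, from RefSeq on GRCm38.p6, with matches to the GAS letters TTCNNNGAA or the ISRE core GAAANNGAA on either strand in capitals. The 6 shown were picked to show each kind of match, and Irf1 and Ifit1 are not among the 15 leading genes: a single ISRE core in Cxcl9, Gbp2 and Cxcl10, a GAS in the regulatory factor Irf1, both in Igtp, and several ISRE cores in the antiviral gene Ifit1.
Cxcl9, chr5:92328080-92328329, minus strand: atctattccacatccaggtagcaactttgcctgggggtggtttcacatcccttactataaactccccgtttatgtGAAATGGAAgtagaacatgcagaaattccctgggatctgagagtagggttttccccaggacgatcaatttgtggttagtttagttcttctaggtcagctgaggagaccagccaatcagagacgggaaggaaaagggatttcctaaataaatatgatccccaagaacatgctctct
Gbp2, chr3:142620413-142620662, plus strand: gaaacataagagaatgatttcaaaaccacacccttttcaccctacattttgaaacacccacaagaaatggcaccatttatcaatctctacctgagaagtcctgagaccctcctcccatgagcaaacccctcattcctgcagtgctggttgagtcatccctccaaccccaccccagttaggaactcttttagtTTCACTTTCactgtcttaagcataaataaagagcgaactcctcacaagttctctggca
Cxcl10, chr5:92348890-92349139, minus strand: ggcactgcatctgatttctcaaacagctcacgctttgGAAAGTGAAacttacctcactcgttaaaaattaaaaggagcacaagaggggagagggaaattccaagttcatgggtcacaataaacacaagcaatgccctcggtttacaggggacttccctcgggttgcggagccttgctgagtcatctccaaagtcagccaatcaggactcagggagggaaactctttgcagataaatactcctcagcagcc
Irf1, chr11:53769764-53770013, plus strand: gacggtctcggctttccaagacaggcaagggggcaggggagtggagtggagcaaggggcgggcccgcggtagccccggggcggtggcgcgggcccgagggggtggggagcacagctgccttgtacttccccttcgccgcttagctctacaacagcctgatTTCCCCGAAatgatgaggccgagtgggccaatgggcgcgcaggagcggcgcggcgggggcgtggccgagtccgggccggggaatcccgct
Igtp, chr11:58199306-58199555, plus strand: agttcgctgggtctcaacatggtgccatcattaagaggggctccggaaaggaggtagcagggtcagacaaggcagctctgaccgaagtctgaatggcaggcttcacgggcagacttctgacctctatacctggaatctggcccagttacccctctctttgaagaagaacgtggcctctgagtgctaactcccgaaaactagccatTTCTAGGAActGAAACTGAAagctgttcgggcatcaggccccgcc
Ifit1, chr19:34640639-34640888, plus strand: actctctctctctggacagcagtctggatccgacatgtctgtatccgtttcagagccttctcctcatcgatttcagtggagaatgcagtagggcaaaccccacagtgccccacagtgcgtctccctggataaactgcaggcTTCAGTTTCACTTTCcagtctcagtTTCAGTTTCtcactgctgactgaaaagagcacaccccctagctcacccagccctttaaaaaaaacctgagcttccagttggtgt
The ISRE core began 175 bases before the start in Cxcl9, 58 in Gbp2 and 213 in Cxcl10. In Igtp the GAS began 45 and the ISRE core 34 bases before the start, without overlap. Ifit1 held ISRE cores at 109, 103 and 84 bases, and the first of them overlaps the next, so its longest run of capitals holds both. Irf1 has a GAS 90 bases before the start shown, and its second listed start had no match.

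Matches were counted over the whole 300 base windows, from 250 before to 50 after the start. Of the 100 genes at least 4-fold higher, 77 had a listed promoter, and 21 of these (27.3%) held an ISRE core and 15 (19.5%) a GAS, with 31 (40.3%) holding either. Over all 27025 genes with a promoter the shares were 9.76% and 9.55%, and over the 4095 kept genes with a promoter they were 8.72% and 7.40%. The 84 genes at least 2-fold lower that had a promoter stood at 5.95% for each. Among the GBP and IRG genes, 8 of 12 had a promoter, and 7 of the 8 held an ISRE core and 3 a GAS. Such matches are short and describe letters, not bound sites.

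The signalling genes themselves had smaller differences than many of their targets. Ifng, the ligand, read 1.92 in untreated islets and 43.8 at day 3, an 11.7-fold difference. The receptor genes Ifngr1 and Ifngr2 stayed below 10 on both arrays, at 6.3 and 6.7 for Ifngr1 and 3.5 and 5.5 for Ifngr2. Of 21 genes of the receptor, JAK-STAT and IRF list, 20 were measured, 11 kept, and 4 were at least 2-fold higher, with a median of 0.87 over the kept members, 4 of which passed through day 3 alone, and 0.46 over the 20 measured, beside -0.14 over all kept genes. Those 4 were Irf8, Socs3, Irf1 and Irf7. Irf8, an interferon regulatory factor of myeloid cells, read 1.58 and 22.1 (6.72-fold). Socs3, a feedback inhibitor of JAK signalling, read 9.43 and 56.9 (5.15-fold). Irf1, the first-line IFN-γ-induced factor, read 10.8 and 42.9 (3.51-fold). Socs1, a further inhibitor of this kind, stayed below 10, at 2.71 and 1.58.

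The GBP and IRG GTPases, which act on the vacuoles of intracellular microbes, were higher in every kept member. Of 20 listed genes 12 were measured and 10 kept, and all 10 kept members were at least 2-fold higher, 9 of them at least 4-fold, with a median of 3.07 over these and 2.90 over the 12 measured. Igtp read 10.8 and 250 (19.7-fold), Gbp6 4.18 and 118 (19.4-fold), and Iigp1 4.54 and 89.6 (14.0-fold). The smallest kept difference was that of Irgm1, at 4.81 and 17.4. Of these 10 genes, 9 were below 10 in untreated islets and so were kept through day 3 alone. Gbp2b and Irgc1 stayed below 10 on both arrays. GBP genes are close paralogs, and a probe set can detect more than 1 of them.

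Interferon-stimulated antiviral genes, most of which respond to type I interferon and in part to IFN-γ, were mostly higher at day 3. Of 42 genes 38 were measured and 27 kept, and 19 of the 27 were at least 2-fold higher and 0 lower. Of the 27, 21 were kept through day 3 alone and so had to be higher; the median was 1.6 over the 27 and 1.08 over the 38 measured. Zbp1, a sensor of Z-form nucleic acid, read 3.48 and 35.2 (6.78-fold). Rtp4 read 9.10 and 73.0 (6.76-fold), and Ifit1, which binds foreign RNA, 3.69 and 34.2 (6.37-fold). The ubiquitin ligase Trim25 stood at 73.9 and 69.6, the single kept member with a negative difference.

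Antigen presentation was higher in both MHC classes. In the class I list, 15 of 21 genes were measured and 14 kept, of which 11 were at least 2-fold higher. The median was 1.86 over the 14, of which 9 were kept through day 3 alone, and 1.83 over the 15 measured. Tap1, a subunit of the peptide transporter, read 1.63 and 36.4 (10.6-fold). With all its probe sets averaged, dim ones included, its difference was 0.79, within 2-fold. The immunoproteasome subunits Psmb8 and Psmb9 read 5.27 and 70.6 (9.99-fold) and 2.62 and 41.6 (9.44-fold). B2m, the light chain of class I, was well measured on both arrays, at 22.99 and 203 (8.19-fold), and its second probe set gave 11.1 and 89.1. H2-K1, a heavy chain, read 5.98 and 27.7 (3.72-fold). The endoplasmic reticulum chaperones Pdia3 (a difference of 0.01) and Calr (76.9 and 64.6), which serve all secretory proteins, lay within 2-fold.

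In the class II list, 12 of 13 genes were measured and 8 kept, and all 8 were at least 2-fold higher, 5 of them kept through day 3 alone, with a median of 2.20 over these and 1.97 over the 12 measured. H2-Aa, an α chain, was bright already in untreated islets, at 93.7 and 413 (4.34-fold), and its other bright probe sets gave 72.6 and 278, and 3.88 and 56.7. H2-Ab1, a β chain, read 4.76 and 52.5 (8.06-fold), but another probe set of the gene read 42.8 and 36.4, so the probe sets disagree in direction. Ctss, the protease that trims the invariant chain, read 24.8 and 133 (5.05-fold), and Cd74, the invariant chain, 4.38 and 22.96 (3.91-fold). Ciita, the master regulator of class II, stood at 6.86 and 6.50, below 10 on both arrays.

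Of the ligands that tune T cells, 15 of 17 listed were measured, 5 kept, 4 of these through day 3 alone, and 3 at least 2-fold higher. Cd40, a costimulatory receptor of antigen-presenting cells, read 3.41 and 85.3 (16.1-fold), and a second bright probe set gave 1.45 and 61.7. Cd274 (PD-L1, an inhibitory ligand for T cells) read 3.09 and 45.5 (9.33-fold). Il18bp, a secreted inhibitor of interleukin-18, read 4.19 and 24.1 (4.22-fold). Arg1, an arginase of alternatively activated macrophages, stood at 4.64 and 11.1, just under 2-fold.

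Of 30 measured CXC and CC chemokines 6 were kept, all 6 of them through day 3 alone, and 5 were at least 2-fold higher. Cxcl10 read 2.07 and 71.8 (18.1-fold), and its partner Cxcl9 is given above. Cxcl1, a neutrophil attractant, read 6.23 and 30.8 (3.99-fold), and Ccl11, the eosinophil attractant eotaxin, 2.49 and 13.5 (3.45-fold). Of 14 measured chemokine receptors Ccr2, which brings monocytes into tissue, was the single kept one, at 3.40 and 18.8 (3.85-fold). Cxcr3, the receptor of Cxcl9 and Cxcl10, stood at 4.87 and 7.17, and Ccl24 at 1.12 and 4.20, all below 10.

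Effector genes of T cells were among the higher genes, while most T cell surface genes were below 10. Of 20 measured helper T cell cytokines and effector molecules, 4 were kept and all 4 were at least 4-fold higher, but all 4 passed through day 3 alone and so had to be higher; the median over the 20 measured was 0.31. Beside Ifng these were Ccl5 (4.04 and 50.5, 8.69-fold), a T cell chemokine, and the granzymes Gzma (5.13 and 37.8, 5.58-fold) and Gzmb (2.30 and 21.8, 5.54-fold). NK cells also make them, and of 9 measured NK and CD8 T cell markers Cd8a alone was kept, at 9.70 and 10.4. Cd3e, an invariant chain of the receptor complex, read 1.96 and 3.19, and Cd4 read 2.49 and 2.47. Of 19 measured T cell surface genes, 17 stayed below 10 on both arrays. Thy1, which T cells share with stromal cells, was the kept one that was higher, at 4.77 and 14.1 (2.38-fold), and Zap70, the kinase of the receptor complex, read 11.8 and 8.03. The summed intensity of the 19 genes was 66.8 and 83.0. Among activation genes, Tnfsf11, which encodes RANKL, read 1 and 13.4 (5.12-fold) and was below 2 on the other 6 arrays. Nr4a1, an immediate early gene of receptor signalling that many tissues express, read 26.5 and 32.3.

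Several macrophage genes were higher at day 3. Of 28 macrophage and monocyte markers 26 were measured and 11 kept, and 7 were at least 2-fold higher and 5 at least 4-fold, beside 6.16% and 2.01% of all kept genes. Of the 11, 6 were kept through day 3 alone and so had to be higher; the median was 2.00 over the 11 and 0.69 over the 26 measured. Lgals3 (galectin-3) read 5.68 and 49.6 (6.71-fold). The lysozyme gene Lyz1 read 19.1 and 120 (5.79-fold), and Lyz2, its close copy, 4.18 and 28.8 (4.99-fold); their probe sets can share transcripts. Laptm5, a lysosomal protein of leukocytes, read 15.4 and 111 (6.50-fold), with 4.29 and 11.5 from its other bright probe set. Csf1r, the growth factor receptor that defines macrophages, was already measurable in untreated islets, at 23.9 and 80.3 (3.18-fold). The macrophage marker Cd68 stood at 1.43 and 4.08, and Chil3, a marker of alternative activation, at 1 and 2.75. The summed intensity of the 26 markers was 157 and 557. Of 13 measured dendritic cell markers, Itgax (3.20 and 10.04) and Cd83 (3.79 and 11.1) were kept, at 2.32- and 2.27-fold. Both passed through day 3 alone and so had to be higher, and the median over the 13 measured was 0.40. With a pseudocount of 8 their differences were 0.69 and 0.70, within 2-fold.

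Few marker genes of other leukocytes reached 10. Most T cell surface genes were below 10 as well, so such values do not show that a cell type was absent. Of 37 measured markers of neutrophils, mast cells, eosinophils, B cells, NK and CD8 T cells, 3 were kept and 0 were past 2-fold in either direction. The kept neutrophil marker Csf3r read 10.1 and 6.96. The 3 measured red cell genes were below 10 on both arrays.

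Genes of inflammatory signalling were higher by smaller folds than the interferon targets. Of 17 measured genes of the NF-κB pathway 9 were kept and 5 were at least 2-fold higher, with a median of 1.16 over the 9, of which 4 passed through day 3 alone, and 0.58 over the 17 measured. Tnfaip2 read 5.04 and 35.9 (5.39-fold), and Nfkbia, the inhibitor that NF-κB itself induces, 93.3 and 220 (2.33-fold). Icam1, the adhesion molecule that leukocytes bind, read 1.56 and 12.0 (3.94-fold). In the list of IL-1, IL-6, IL-12 and IL-18 genes, 4 of 19 measured were kept, led by Casp1, the protease that matures IL-1β, at 1.96 and 11.8 (3.47-fold), and Il1b itself read 5.69 and 10.4. The interleukin-1 receptor Il1r1 went the other way, at 25.8 and 15.4.

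Most genes for direct injury by cytokines were below 10 on both arrays. Nos2, the inducible nitric oxide synthase, read 3.38 and 3.62, and the death receptor Fas 1.46 and 1.63. Of 19 measured genes of this list, 3 were kept: Casp4 (1.35 and 10.9, 3.85-fold), Casp8 (4.56 and 11.3, 2.04-fold) and the TNF receptor Tnfrsf1a (17.3 and 24.9).

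In vessels, stroma and innate proteins the picture was mixed. Vcam1, an endothelial adhesion molecule, read 3.77 and 14.5 (2.86-fold), while the endothelial genes Plvap (36.3 and 29.1) and Kdr (12.0 and 11.7) were close on both arrays. Of 12 kept stromal and matrix genes the median was -0.15, and Vim (vimentin), which leukocytes share, was the highest, at 58.8 and 179 (2.97-fold). Of 7 kept complement and acute phase genes all were positive and 5 at least 2-fold higher, with 6 of the 7 kept through day 3 alone. Serping1, the C1 inhibitor, which IFN-γ is known to induce, read 43.0 and 146 (3.29-fold), and the acute phase gene Saa3 read 2.97 and 19.8 (4.39-fold).

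**Figure D3:**
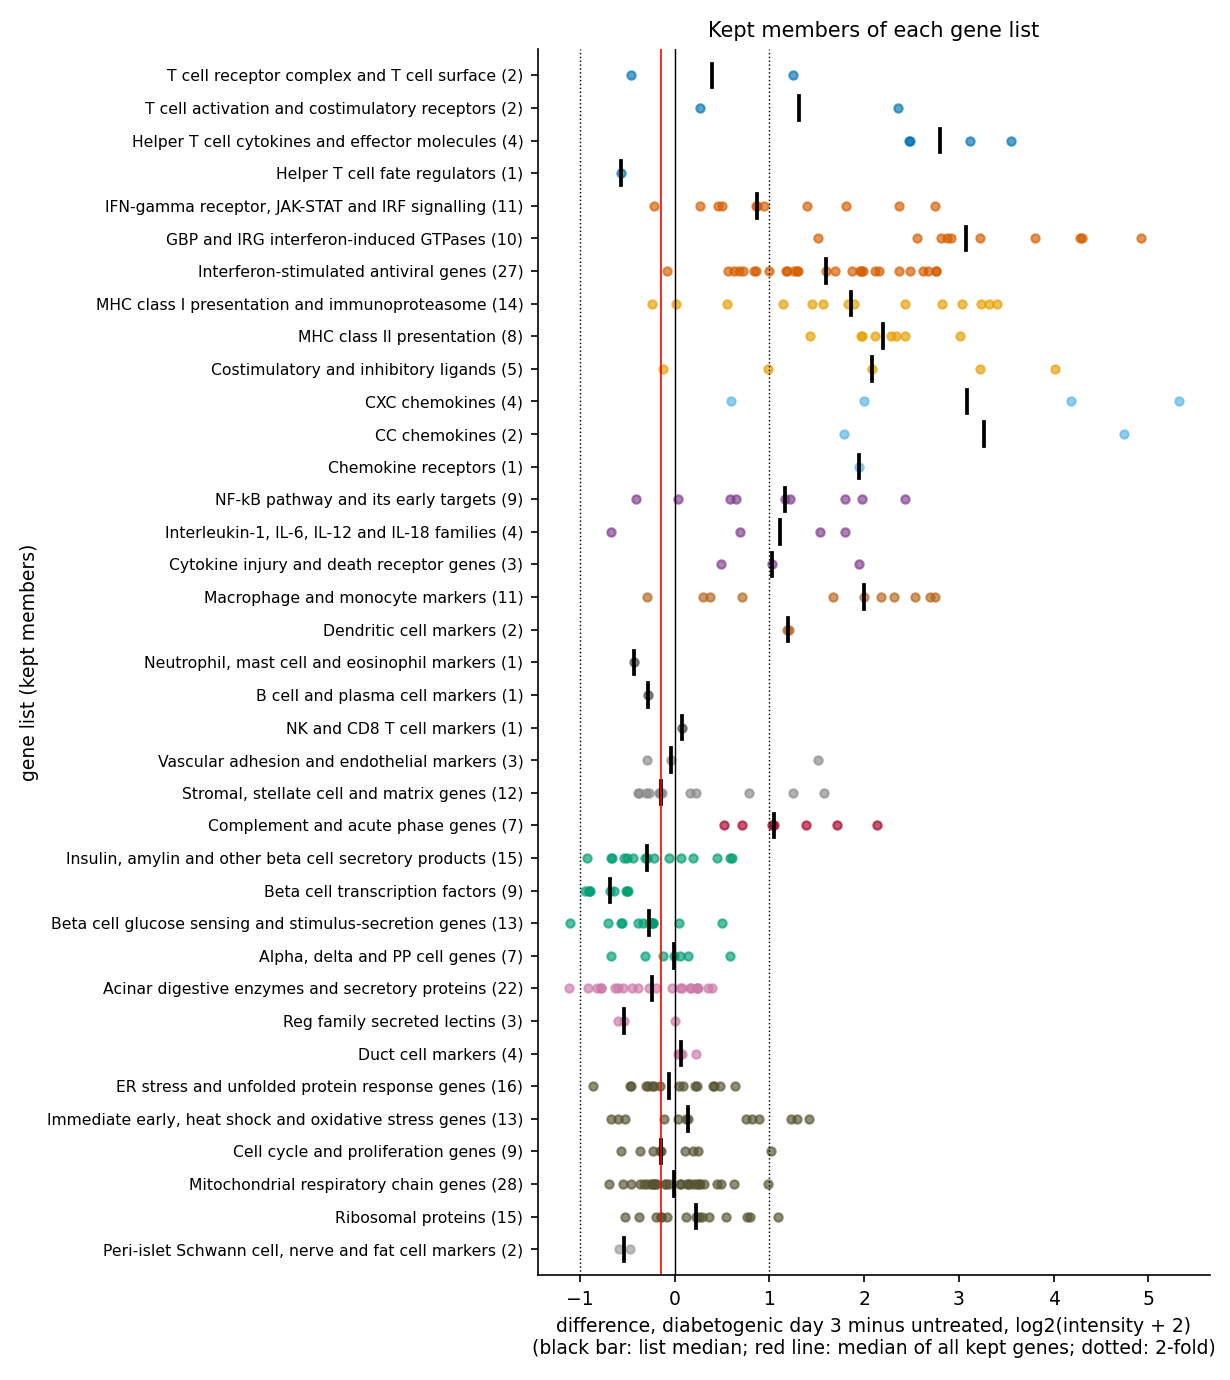
Difference of each kept member (points) of the gene lists between the diabetogenic day 3 and untreated arrays, in log2(intensity + 2), with each list's median as a black bar, the median of all kept genes (-0.14) in red and dotted lines at 2-fold. The GBP and IRG (median 3.07), class II (2.20) and class I (1.86) lists lie to the right, and the beta cell transcription factors (-0.68) to the left.

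Most islet genes lay within 2-fold at day 3. Over the 4 islet lists 62 genes were measured and 44 kept, of which 0 were at least 2-fold higher and 1 lower. Over all kept genes 6.16% were higher and 2.01% lower by that fold, so 1 lower gene of 44 is near the general share. The median was -0.32 beside -0.14 over all kept genes. The difference of Ins2 was 0.06, but its probe set is of a kind that can also detect the near-identical Ins1. Iapp stood at 0.61, with 1 further probe set higher (792 and 1669) and 2 slightly lower (439 and 380, 71.5 and 62.2). Sst (somatostatin) read 49.5 and 75.2, Gcg differed by 0.14, and Ppy was below 10. Pyy (peptide YY) read lower at day 3, at 298 and 186, a difference of -0.67.

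Of 14 measured beta cell transcription factors 9 were kept, and all 9 read lower at day 3, with differences from -0.95 to -0.50 and none past 2-fold. Of the 9, 3 were kept through the untreated array alone and so had to read lower. The median was -0.68 over the 9 and -0.66 over the 14 measured, of which 13 were negative. Pdx1, the factor that drives insulin transcription, read 77.5 and 47.6. Foxa2, a factor upstream of Pdx1, read 71.4 and 37.6, and Neurod1, which also binds the insulin promoter, 69.2 and 43.7. Myt1 (17.2 and 7.93), Mnx1 (11.2 and 5.02) and Hnf4a (13.3 and 6.19) were below 10 at day 3, as Nkx6-1 was on both arrays, at 5.91 and 2.88. Centring the arrays on the median of kept genes moves each of these differences by 0.14 toward 0.

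Slc2a2, which encodes the glucose transporter GLUT2, was the islet gene past 2-fold, at 161 and 73.7 (2.15-fold lower). With the arrays centred on the median of kept genes its difference was -0.96, within 2-fold. Other beta cell genes read lower by less. Slc30a8, the zinc transporter of insulin granules, read 132 and 68.3 (1.91-fold lower). G6pc2, an islet glucose-6-phosphatase, read 166 and 103, and Ero1b, an oxidase that serves proinsulin folding, 504 and 309 (1.63-fold lower). Chgb and Scg5, which encode granule proteins, ran the other way, by 0.44 and 0.58. Mafa was not analysed here.

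**Figure D4:**
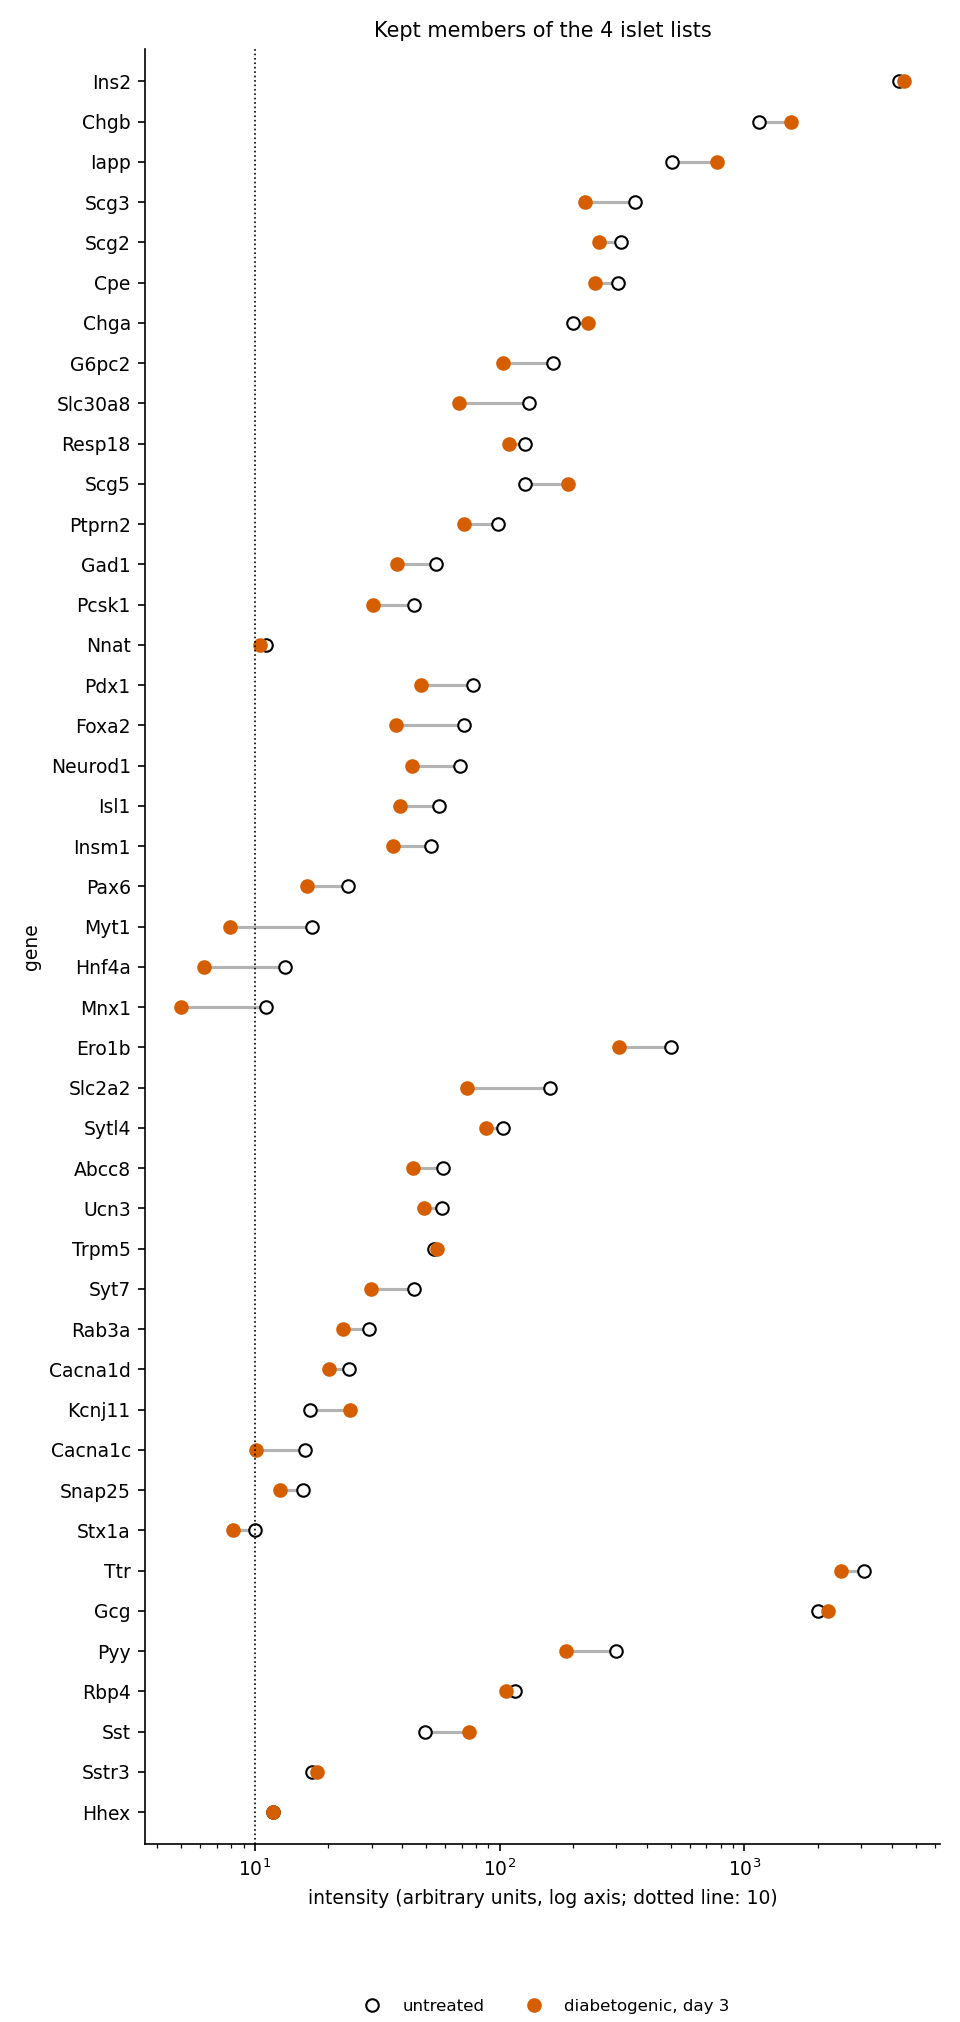
Intensity (log axis) of the 44 kept members of the 4 islet lists on the untreated array (open circles) and the diabetogenic day 3 array (filled circles), ordered within each list by untreated intensity, with a dotted line at 10. Ins2 and Gcg overlap or nearly so, and each of the 9 transcription factors from Pdx1 to Mnx1 has its day 3 point on the left. Of these 9, 3 were kept through the untreated array alone and so had to read lower.

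The exocrine transcripts that were captured with the islets lay mostly within 2-fold. Of 24 measured acinar genes 22 were kept and 1 was at least 2-fold lower, beside 2.01% of all kept genes. The median was -0.24, near 0 when all probe sets of a gene were averaged. The acinar gene past 2-fold is Cela3b, at 2.18-fold lower. Another of its probe sets was lower by a similar amount, at 956 and 426, while others read 250 and 226, and 60.5 and 61.8. The difference of Cela3b lay within 2-fold with centred arrays (-0.98) and with all its probe sets averaged (-0.60). Prss2, a trypsinogen, read 429 and 313. Its further probe sets gave 482 and 358, 264 and 221, and, the other way, 49.7 and 76.7. The elastase Cela1 read 253 and 298. The summed intensity of the 24 genes was 3698 and 2713, and it includes the Cela3b probe set at 1341 and 615. Of the 22 kept genes 9 read higher at day 3 and 13 lower. Duct keratins were close, with Krt18 at 76.5 and 89.4. Of the Reg lectins, Reg1 read 94.7 and 64.5 and Reg3b 13.0 and 7.88.

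No kept gene of endoplasmic reticulum stress or the respiratory chain was past 2-fold, beside 6.16% of all kept genes higher and 2.01% lower. Of 16 kept genes of endoplasmic reticulum stress the median was -0.06. The stress factor Ddit3 (CHOP) read 16.0 and 19.2, and Dnajb9, a chaperone cofactor, 155 and 84.1. Of 13 kept immediate early, heat shock and oxidative stress genes, 3 were at least 2-fold higher, namely Ier3 (13.8 and 40.3), Jun (8.40 and 23.5) and Txnrd1 (3.34 and 10.5), and the median was 0.14. The other probe sets of Txnrd1 were below 10 and lower at day 3, and with all of them averaged its difference was 0.08. Of 39 measured cell cycle genes 9 were kept, and 1 was at least 2-fold higher, the mitosis gene Cdca8, at 4.73 and 11.6; its other 2 probe sets were below 10 and lower at day 3. The proliferation marker Mki67 read 2.15 and 1.5. Over the 28 kept respiratory chain genes the median was -0.01, and of 15 ribosomal protein genes 1 was, Rpl19, at 96.4 and 208 (2.13-fold).

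Most of the higher genes could not be shown as a ratio of 2 measured levels, since 88 of the 100 at least 4-fold higher were below 10 in untreated islets. The 12 that were at 10 or more on both arrays are named here after their values were seen: Igtp, B2m, Psmb10, Tgm2, Laptm5, Lyz1, Parp14, Ifitm3, Ctss, Lgals1, Plaat3 and H2-Aa. Psmb10, the third inducible subunit of the immunoproteasome, read 19.8 and 153. Tgm2, a transglutaminase, read 29.4 and 218, and Lgals1 (galectin-1) 19.5 and 97.9. Of the 100 genes, 48 were in a gene list and 52 were not. Chosen likewise after their values were seen, the unlisted ones included further leukocyte genes. Ptprc, the common leukocyte antigen CD45, read 5.42 and 39.4. Cd52, a surface antigen of lymphocytes and monocytes, read 4.59 and 45.5, and Mpeg1, the pore-forming protein of macrophages, 5.49 and 43.0. Clec7a read 2.49 and 80.8, and Plac8 6.52 and 127. Samhd1, an antiviral nucleotide hydrolase that interferon induces, read 5.44 and 48.0.

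Few of the lower genes were in a gene list, and whether the lower genes share a pattern was not tested. The 15 largest differences downward belonged to dim genes, between 10.2 and 21.9 in untreated islets and at 4.34 or less at day 3, led by the sulfotransferase Sult1c2 (21.8 and 2.35, 5.46-fold lower), the hair follicle keratin Krt28 (14.0 and 1.18) and the peptidase Mmel1 (20.2 and 2.92). These 3 are the ones past 4-fold. The others in order were Ercc2, 4933421I07Rik, Slit1, Slc31a1, Klhl7, Slc5a4b, Xpc, Mir99ahg, Tex36, Lman1l, Capn8 and C1qtnf9. Of the 100 genes at least 2-fold lower, 2 were in a gene list, Slc2a2 and Cela3b, and 26 were at 10 or more on both arrays. Among those 26, chosen after their values were seen, Hadh, a fatty acid oxidation enzyme that is abundant in beta cells, read 2864 and 1265. Sec61b, a subunit of the endoplasmic reticulum translocon, read 565 and 221, and Gjd2, the gap junction protein that couples beta cells, 27.1 and 12.4. Of 247 genes at 100 or more in untreated islets, 8 were at least 2-fold lower and 2 higher, with a median of -0.30. The 2 higher were Rpl13a (1040.4 and 2145) and the actin-binding peptide gene Tmsb10 (115 and 309).

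On the array of protected mice of the same day, which shares the untreated array as its baseline, 61 of the 100 genes at least 4-fold higher were at 10 or more. The matching share over all kept genes was not counted, so 61 cannot be read as high or low. Cxcl9 stood at 8.60 in the protected pool against 127 in the diabetogenic pool, Gbp2 at 29.3 against 216 and Igtp at 31.4 against 250. Ccl17 was higher in the protected pool, at 559 against 132, and Tgm2 likewise, at 907 against 218. Lyz1 (123 and 120) and Clec7a (91.8 and 80.8) were close in both. By lists, the summed intensity of the 12 GBP and IRG genes was 66.4 in untreated, 974 in diabetogenic and 137 in protected islets. For the 12 class II genes the sums were 168, 747 and 880.5, and for the 26 macrophage and monocyte markers 157, 557 and 735. Slc2a2 stood at 75.8 in the protected pool, beside 73.7. These genes were picked after their values were seen, and no difference between the pools was tested.

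**Figure D5:**
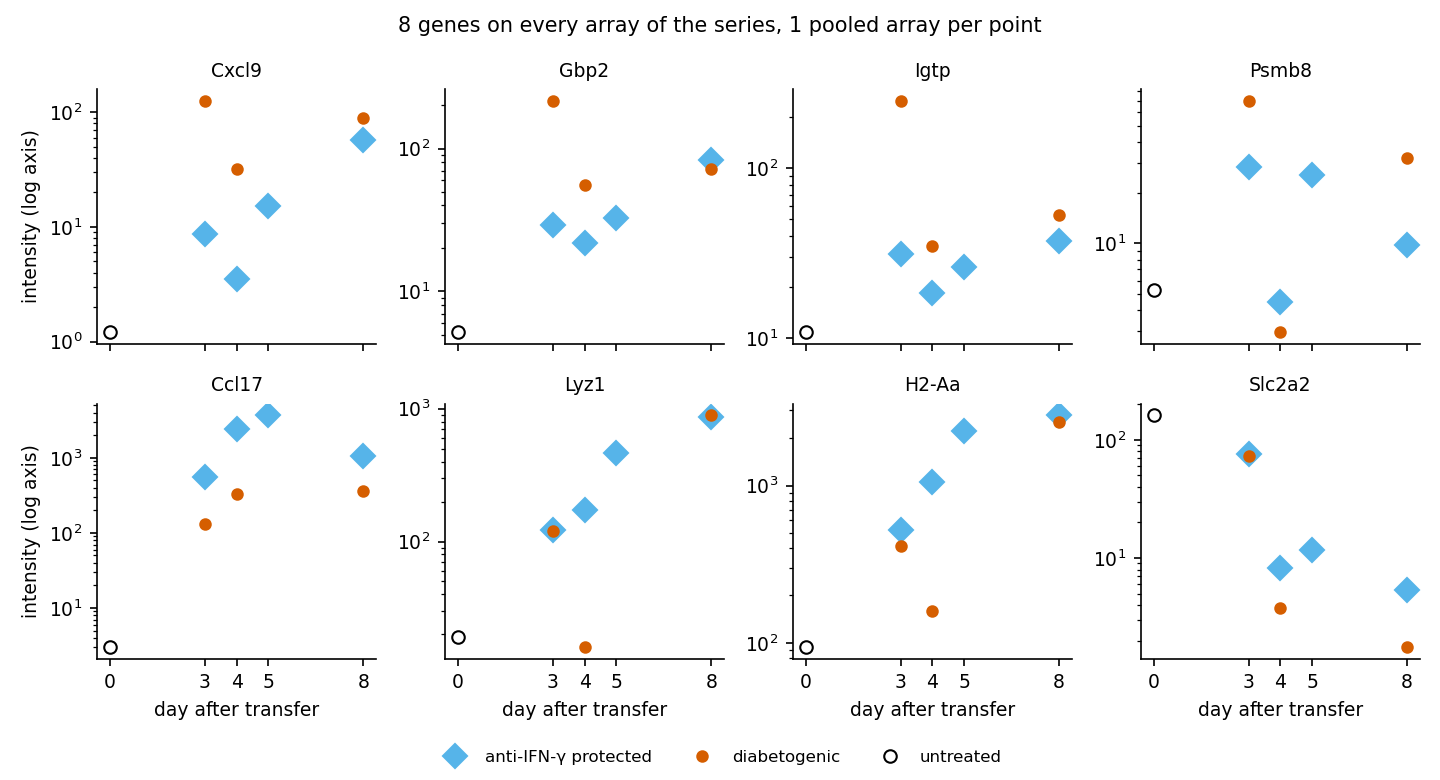
Intensity (log axis) of 8 genes, picked after their values were seen, on every array of the series against the day after transfer, for untreated (open circle), diabetogenic (filled circles) and protected (diamonds) islets, with 1 pooled array per point. Cxcl9, Gbp2, Igtp and Psmb8 have their highest value on the diabetogenic day 3 array, while Lyz1 and H2-Aa are highest at day 8. The arrays also differ as a whole. On the diabetogenic day 4 array 8.02% of probe sets reached 10, beside 14.0% on the diabetogenic day 3 array. The part of such array differences in these values was not tested.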

How the data were processed

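Islet RNA was measured on 8 Affymetrix arrays of 45101 probe sets, 1 pooled array per arm and day. The values are intensities on a linear scale, as the authors deposited them in 1 table. The summarisation and scaling behind them are not stated in the labels or header, and no further scaling was applied. Gene names came from a 2016 annotation of the platform: 34958 probe sets carried 1 gene symbol and were used, 932 carried several and 9211 none.

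Each gene was represented by its brightest probe set on average across the 8 arrays. Differences were computed as log2(intensity + 2) in Python 3.11.15 with pandas 2.3.3 and numpy 2.4.6, and genes with an intensity of 10 or more on either of the 2 arrays were kept. The calculation was tested on simulated data with known changes. Named genes are the 15 largest differences per direction, up to 4 kept members per list with the largest differences, and a set of 52 genes of which 48 were measured; others are marked. The genes and the 38 lists (746 genes, 658 measured, 297 kept) were chosen with earlier results of these data known. Alternatives were other pseudocounts, filters, probe set choices and scalings.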

Additional observations from a re-analysis of the deposited data

How the results depend on the processing

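The counts of genes depend on the settings. In the order 2-fold higher, 2-fold lower, 4-fold higher and 4-fold lower, they were 306, 100, 100 and 3. A pseudocount of 0.5 gave 348, 152, 149 and 20, with 69.6% of the 2-fold genes higher, and one of 8 gave 188, 25, 37 and 0, with 88.3% higher. Without the filter they were 525, 260, 100 and 3, with a minimum of 20 they were 149, 41, 73 and 2, and with a mean of 10 or more over the 2 arrays 188, 52, 75 and 2. Averaging all probe sets of a gene gave 192, 40, 67 and 3, and the probe set brightest on these 2 arrays 334, 117, 107 and 9. Centred arrays gave 368, 50, 125 and 3, quantile normalization over the 2 arrays 311, 92, 105 and 3, and over all 8 arrays 257, 50, 86 and 2. A minimum of 10 on both arrays, added after seeing the data, left 57, 26, 12 and 0 of 3579 genes. Of 162 named genes, 69 moved by more than 1.5-fold in at least 1 setting, mostly under a pseudocount of 8 (54 genes) or averaged probe sets (30). Of the named genes past 2-fold, 2 changed sign, in 1 setting each: Cdca8 to -0.058 with all probe sets averaged, and H2-Ab1 to -0.22 with the probe set brightest on the 2 arrays. Of 85 named genes past 2-fold, 29 lay within it in at least 1 setting: 18 with a pseudocount of 8, 16 with averaged probe sets (among them Tap1 at 0.79, Laptm5 at 0.75, H2-K1 at 0.84, Ccr2 at 0.45, Tnfaip2 at 0.93 and Pramel12 at 0.95), 3 with quantile normalization over 8 arrays, 2 with centred arrays (Slc2a2 at -0.96 and Cela3b at -0.98) and 1, H2-Ab1, with the brightest probe set. Of 37 list medians 19 moved as much. Of those past 2-fold, that of the IL-1, IL-6, IL-12 and IL-18 list reversed, to -0.67 with a minimum of 20. Il1r1, at 25.8 and 15.4, was then the only member kept, so that value is the difference of this gene alone. No paired analysis was possible because each state has 1 array. The number of arrays limits all of these values.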

Other observations

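Of the 100 genes at least 4-fold higher at day 3, 26 were below 10 on each of the other 7 arrays of the series. Some of these are interferon targets, among them Gbp3 (63.2 on the diabetogenic day 3 array), Gbp8 (32.4), Irgm2 (26.9) and Ifit3 (14.3). Others are in no interferon list, such as Pramel12 (72.9), the growth factor gene Tgfa (24.1) and the nucleoporin gene Nup54 (28.3). Of the 100 genes at least 2-fold lower, 48 were below 10 on each of the 7 arrays other than the untreated one. The matching shares over all kept genes were not counted, so 26 and 48 cannot be read as traits of the higher or lower genes. These values belong to 1 array each and have no replicate.

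Where a gene at least 4-fold higher had another probe set at 10 or more on either array, which was so for 19 of the 100 genes, 17 also had another such probe set at least 2-fold higher, and for 2 every such probe set went the other way. Among genes at least 2-fold lower, 14 had another bright probe set, and for 3 of them it was also at least 2-fold lower.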
